A study of Homo sapiens with 6 samples.

Results

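The genes described here encode the proteins of the cytosolic ribosome. Members were the rows annotated as protein-coding whose names begin with RPL or RPS, apart from the RPS6K kinases, and they numbered 91 of the 57914 genes in the deposited table. Of these, 46 encode core proteins of the large (60S) subunit and 31 encode core proteins of the small (40S) subunit. Another 10 are paralogs, that is, second copies of a core gene with a sequence of their own. The name rule also took in 4 rows that are not ribosomal protein genes in the strict sense. These were RPS19BP1, whose product binds RPS19, and the readthrough genes RPL17-C18orf32, RPS10-NUDT3 and RPL36A-HNRNPH2. Of the 91 members, 87 had enough counts to be tested, including all 77 core genes. The 4 that were not tested were RPL3L, RPL10L and 2 Y-linked paralogs.

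RNA was sequenced from A375, an established human melanoma cell line. Cells had been incubated with Aldefluor, a substrate that becomes trapped and fluorescent in cells with aldehyde dehydrogenase (ALDH) activity, and sorted by flow cytometry. The ALDH_High group came from the top 5% of the Aldefluor signal and the ALDH_Low group from the bottom 5%, with 3 libraries each, and the labels name no other genetic change or drug in either group. Both gates were taken from 1 cell line, so the spread between libraries is a spread between sorted samples of that line, and the labels do not say whether the replicates were separate cultures.

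The cytosolic ribosome translates messenger RNA into protein. Its small subunit reads the message, and its large subunit joins the amino acids and passes the new chain out through a tunnel. Each core protein is needed in about equal number, and most ribosomal protein transcripts begin with a run of pyrimidines (the 5′ terminal oligopyrimidine, or TOP, motif) through which mTORC1 and LARP1 control their translation together. In melanoma, as in other dividing cells, these transcripts are among the most abundant in the cell.

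The start of these transcripts is a feature that the name rule did not use. The starts below are those of the genes on which the results turn: the core genes RPL17, RPL11, RPL21 and RPS21, and the paralogs RPL22L1 and RPL26L1, each after its core partner. The windows run from 10 bases before to 20 bases from the RefSeq start (build GRCh38.p14), 30 bases in all, 5′ to 3′ on the strand of the transcript. Capitals mark a run of at least 5 bases that begins with C within 5 bases of the annotated start and continues with C or T, searched on the transcript strand only.
RPL17: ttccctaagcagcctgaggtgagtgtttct
RPL11: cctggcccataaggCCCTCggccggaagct
RPL21: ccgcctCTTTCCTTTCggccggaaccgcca
RPS21: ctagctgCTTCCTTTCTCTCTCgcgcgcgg
RPL22: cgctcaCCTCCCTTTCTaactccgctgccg
RPL22L1: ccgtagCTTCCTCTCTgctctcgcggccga
RPL26: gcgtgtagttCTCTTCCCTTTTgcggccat
RPL26L1: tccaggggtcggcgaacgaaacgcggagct
These windows lie at chr18:49492446-49492475 (minus strand) for RPL17, chr1:23691769-23691798 (plus) for RPL11, chr13:27251548-27251577 (plus) for RPL21 and chr20:62387093-62387122 (plus) for RPS21. Those of the paralogs and partners lie at chr1:6199576-6199605 (minus) for RPL22, chr3:170870176-170870205 (minus) for RPL22L1, chr17:8383174-8383203 (minus) for RPL26 and chr5:172958719-172958748 (plus) for RPL26L1.

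RefSeq start windows were matched for 62 of the 77 core genes, and 50 of them (80.6%) held such a pyrimidine run. Among 15345 protein-coding genes the share was 22.2%. The run was found in 31 of 38 large subunit windows (81.6%), in 19 of 24 small subunit windows (79.2%) and in 3 of 8 paralog windows (37.5%). The RPL22L1 window held one, as that of its partner RPL22 did. The windows of RPL26L1 and of RPL17 held none, which says only that these letters are not near the annotated start. A match is a description of the sequence and was not tested as a working motif.

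Library totals lay between 26692868 and 37830603 counts. To follow a gene across libraries, values are given as CPM, that is, counts divided by the library size after scaling with edgeR's TMM factors. To compare genes with each other, the deposited TPM are used, which also correct for transcript length. The cells were checked against 8 markers of the melanocyte lineage. SOX10 was present in both groups, with a mean of 670 ± 122 CPM (SD, n = 3) in ALDH_High and 194 ± 18.3 in ALDH_Low, and so was MITF, at 13.04 ± 0.944 and 24.7 ± 6.62 CPM. S100B stood at 32.2 ± 4.10 CPM in ALDH_High and 1.68 ± 1.33 in ALDH_Low. Of the 4 lineage markers with enough counts to be tested, SOX10 and S100B were higher in ALDH_High and MITF was lower (edgeR quasi-likelihood test, adjusted p = 3.14e-05, 9.03e-05 and 0.00667). The defining pigment genes MLANA, TYR, DCT, TYRP1 and PMEL had at most 3, 2, 10, 11 and 19 counts in any library, so the pigmented state was near absent in both gates. Of the blood cell markers, PTPRC, CD3E and HBB had at most 4, 2 and 0 counts in any library, while CD14 stood at 0.224 ± 0.118 and 0.913 ± 0.252 CPM and LYZ at 3.89 ± 2.44 and 1.23 ± 0.368 CPM. These 2, the blood markers with enough counts to be tested, both passed. LYZ was higher and CD14 lower in ALDH_High (edgeR quasi-likelihood test, adjusted p from 0.0142 to 0.024). The part of such cells in the results was not tested.

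The share of the messenger RNA taken by ribosomal protein transcripts did not differ between the gates beyond the spread of the libraries. It was 20.8%, 19.3% and 18.9% of all TPM in ALDH_High libraries 1, 2 and 3, and 19.8%, 19.1% and 21.5% in the ALDH_Low libraries. The means were 19.66 ± 1.007% and 20.1 ± 1.252% (SD, n = 3), a difference of -0.437 percentage points that was smaller than the spread between libraries (exact permutation test, two-sided, p = 0.6). The smallest p that 3 libraries against 3 can give in this test is 0.1. In bulk RNA from sorted cells, fewer cells with a transcript and less of it per cell cannot be told apart.

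The balance of the subunits varied even less. The summed TPM of the 46 large subunit genes was 1.397, 1.388 and 1.379 times that of the 31 small subunit genes in the ALDH_High libraries, and 1.399, 1.383 and 1.395 times in the ALDH_Low libraries. The groups overlapped (exact permutation test, two-sided, p = 0.6). Every library therefore lay between 1.379 and 1.399, although the share of the whole family in the TPM ranged from 18.9% to 21.5%.

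The family moved as a block from library to library, within as well as between the groups. The geometric mean of the 77 core genes was 976.9, 823.9 and 788.7 CPM in the ALDH_High libraries and 882.2, 841.2 and 1009 CPM in the ALDH_Low libraries (exact permutation test, two-sided, p = 0.5). ALDH_High library 1 and ALDH_Low library 3 were the highest, and for 61 of the 77 core genes these were the libraries with the highest and second highest CPM. The lowest CPM fell in ALDH_High library 3 for 53 core genes and in ALDH_Low library 2 for 16. Within the groups, the median SD of log2 CPM over core genes was 0.17, and it was 0.08 once the geometric mean of the core genes had been subtracted from each library. The rank order of the core genes was nearly fixed, with a Spearman correlation across these 77 genes of at least 0.939 between any pair of libraries.

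**Figure D1:**
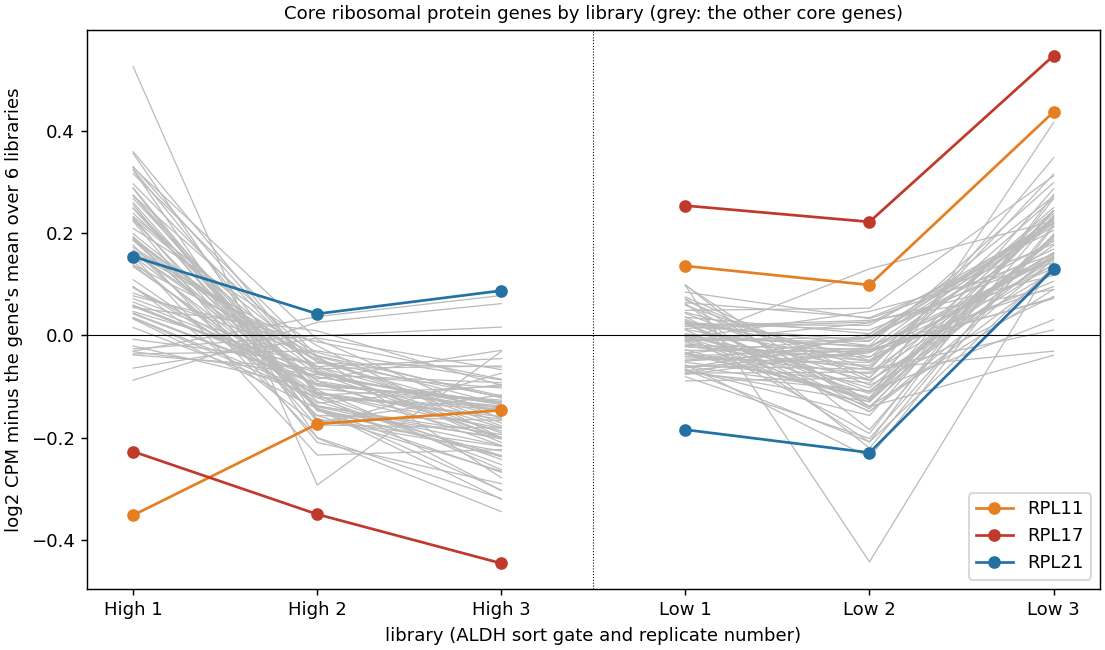
Each line is 1 of the 77 core ribosomal protein genes. The vertical axis gives its log2 CPM minus its own mean over the 6 libraries, and the horizontal axis the libraries by sort gate and replicate number. The grey lines rise and fall together, with ALDH_High 1 and ALDH_Low 3 high, while RPL17 (red) and RPL11 (orange) are below their means in all 3 ALDH_High libraries and above them in all 3 ALDH_Low libraries.

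Between the gates, 2 of the 87 tested members changed, and both were large subunit genes that were lower in ALDH_High: RPL17 and RPL11. None was higher (edgeR quasi-likelihood test, adjusted p below 0.05). Of all 17047 genes tested, 20.6% passed the same threshold (10.8% higher and 9.83% lower), against 2.3% of the members. The groups did not overlap for 6 members (6.9%): RPL7L1 was higher in every ALDH_High library, and RPL17, RPL11, RPS20, RPL22L1 and RPL26L1 were lower. Groups that did not overlap were found for 37.8% of all genes tested. The median log2 fold change of ALDH_High over ALDH_Low was -0.08 over the members, -0.08 over the large subunit and -0.05 over the small subunit, beside -0.01 over all genes.

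The 75 other core genes did not pass, with log2 fold changes from -0.27 (RPS20) to 0.18 (RPL21). Standard errors of the core genes ran from 0.10 to 0.21, with a median of 0.13. For 74 of the 77 core genes the whole 95% interval of the fold change lay within 1.5-fold in either direction, the exceptions being RPL17, RPL11 and RPL9. The estimate was below 0 for 63 core genes and above 0 for 14. The median of the members was below 0 in 17 of 19 other ways of processing, but its size depended on single libraries. It was -0.151 without ALDH_High library 1, -0.0273 without ALDH_High library 2 and -0.00431 without ALDH_Low library 3. Scaling to the core genes sets this median near 0 by construction (-0.00208), so that setting could not show a lean. The median was above 0 in the other 2: 0.15 once a trend of the counts on gene length was removed within each library, and 0.00187 without ALDH_High library 3. The number called also depended on ALDH_High library 1, without which 8 members were lower (RPL11, RPL17, RPL22L1, RPL28, RPL36, RPS2 and RPS20 among them), or 9.2% of those tested beside 23.7% of all genes in that fit.

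**Figure D2:**
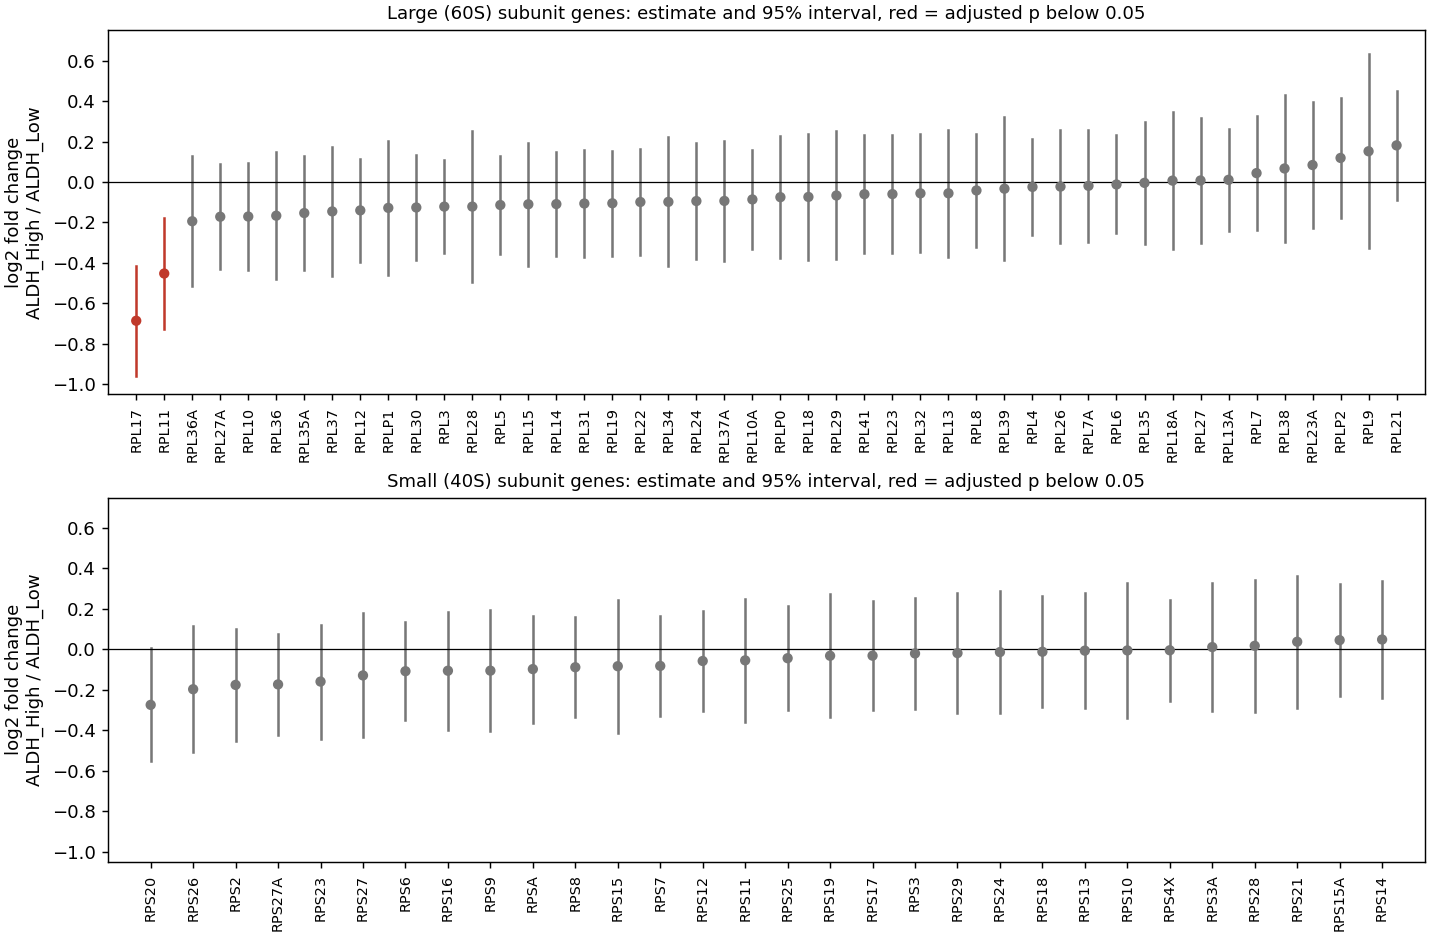
Points give the log2 fold change of ALDH_High over ALDH_Low for each core gene and bars its 95% interval, with the large subunit genes above and the small subunit genes below, each in order of the estimate (1 small subunit gene is not drawn). RPL17 at -0.69 and RPL11 at -0.45 (red) are the genes past the threshold, and the others lie between -0.27 and 0.18.

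RPL17 showed the largest difference of any core gene. Its protein lies at the peptide exit tunnel of the large subunit. The gene (ENSG00000265681) lies at chr18:49488453-49492508 in GENCODE 44 on GRCh38. RPL17 stood at 682.7, 627.1 and 586.8 CPM in the ALDH_High libraries and at 952.5, 931.8 and 1167 CPM in the ALDH_Low libraries. The highest ALDH_High library was well below the lowest ALDH_Low library, and the ALDH_High library in which most core genes were high (library 1) was no exception. The means were 632 ± 48.2 and 1017 ± 130 CPM (SD, n = 3). The log2 fold change was -0.69 ± 0.12 (SE), which is a level 37.9% lower, with a 95% interval of the change from -48.55% to -24.91% (edgeR quasi-likelihood test, adjusted p = 0.00306). RPL17 passed the threshold in all 19 other ways of processing the counts, with log2 fold changes from -0.75 to -0.45, the smallest with the length trend removed. Measured against the geometric mean of the core genes in the same library it was lower by 0.60 on the log2 scale.

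The other 7 genes of the exit tunnel list (RPL4, RPL19, RPL23A, RPL26, RPL31, RPL35 and RPL39) did not pass, with adjusted p of 0.592 (RPL19) or more. Their log2 fold changes lay between -0.11 (RPL31) and 0.08 (RPL23A), and the median of all 8 was -0.03. RPL4, which forms part of the tunnel wall, stood at 1929, 1869 and 1736 CPM in ALDH_High and at 1771, 1814 and 2043 CPM in ALDH_Low, with a log2 fold change of -0.02 ± 0.11 (SE). Its groups overlapped.

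RPL11 was the other gene that fell. With RPL5 and 5S ribosomal RNA it forms the 5S particle, which is built into the large subunit and, when free, binds MDM2 and so stabilises p53. The gene (ENSG00000142676) lies at chr1:23691742-23696835. RPL11 stood at 710.1, 803.5 and 818.5 CPM in the ALDH_High libraries and at 995.2, 969.9 and 1226 CPM in the ALDH_Low libraries. All ALDH_High libraries were below all ALDH_Low libraries, and ALDH_High library 1, where 35 core genes had their highest CPM, held the lowest RPL11 value. The means were 777 ± 58.7 and 1064 ± 141 CPM (SD, n = 3). The log2 fold change was -0.45 ± 0.12 (SE), or 26.9% lower (edgeR quasi-likelihood test, adjusted p = 0.0269). The call was lost in 8 of the 19 other ways of processing, with log2 fold changes over the 19 from -0.52 to -0.21 and an adjusted p of up to 0.251: with the length trend removed (-0.21), in the 3 limma fits of TPM, after scaling to the core genes (a choice made after the values were seen), and without ALDH_High library 2 (adjusted p = 0.0787), ALDH_High library 3 (0.0556) or ALDH_Low library 3 (0.101).

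RPL5, the partner of RPL11 in the 5S particle, stood at 691.9, 679.2 and 681.6 CPM in ALDH_High and 690.7, 698.5 and 832.2 CPM in ALDH_Low. It lies far from RPL11 on the same chromosome, at chr1:92832013-92841924. The RPL5 groups overlapped, and the log2 fold change was -0.11 ± 0.11 (SE, edgeR quasi-likelihood test, adjusted p = 0.53). Within a library, the log2 ratio of RPL11 to RPL5 in TPM was 0.90, 1.10 and 1.13 in ALDH_High and 1.39, 1.34 and 1.42 in ALDH_Low. The ratio was therefore lower in all 3 ALDH_High libraries, by 0.34 on average, with the smallest p that the exact permutation test can give here (two-sided, p = 0.1). This ratio was not a planned comparison. RPL11 alone already separated the groups, so the ratio is not separate evidence of a difference.

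Both genes that fell lie in stretches of the genome in which many other genes fell too. This was examined after the values had been seen, over genes that code for proteins, were tested, averaged 1 CPM or more and are not members. Within 5 Mb of RPL17 there were 33 such genes, of which 17 were lower (51.5%) and 1 was higher, with a median log2 fold change of -0.61. Within 5 Mb of RPL11 there were 107, of which 36 were lower (33.6%) and 6 higher, with a median of -0.31. Over the genome, 12394 such genes had a median of 0.02, with 9.61% lower and 12.6% higher. The RPL11 region had a lower median than its chromosome as a whole: the 1269 genes of chromosome 1, the region included, had a median of -0.01. Chromosome 1 was not searched throughout for other such stretches. For RPL17 the whole chromosome leaned the same way, with a median of -0.23 over the 176 genes of chromosome 18.

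Single neighbours, chosen after their values were seen, differed widely. Near RPL17, C18orf32 (log2 fold change -0.85), SMAD7, an inhibitor of TGF-beta signalling (-1.41), LIPG, an endothelial lipase (-3.06), and the motor protein gene MYO5B (-2.88) were lower, while DYM (-0.15) and ACAA2 (-0.19) did not pass. Near RPL11, the transcription factor gene E2F2 (-0.51), the transcription regulator gene ID3 (-1.89) and ELOA, which encodes an elongation factor subunit (-0.52), were lower, and SFN fell furthest (-4.16). Other neighbours rose: ST8SIA5 (2.38) near RPL17, and EXTL1 (2.59) and the alkaline phosphatase gene ALPL (1.65) near RPL11. C18orf32 is transcribed next to RPL17, and the readthrough gene RPL17-C18orf32 overlaps both, so counts could have been split between these rows.

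**Figure D3:**
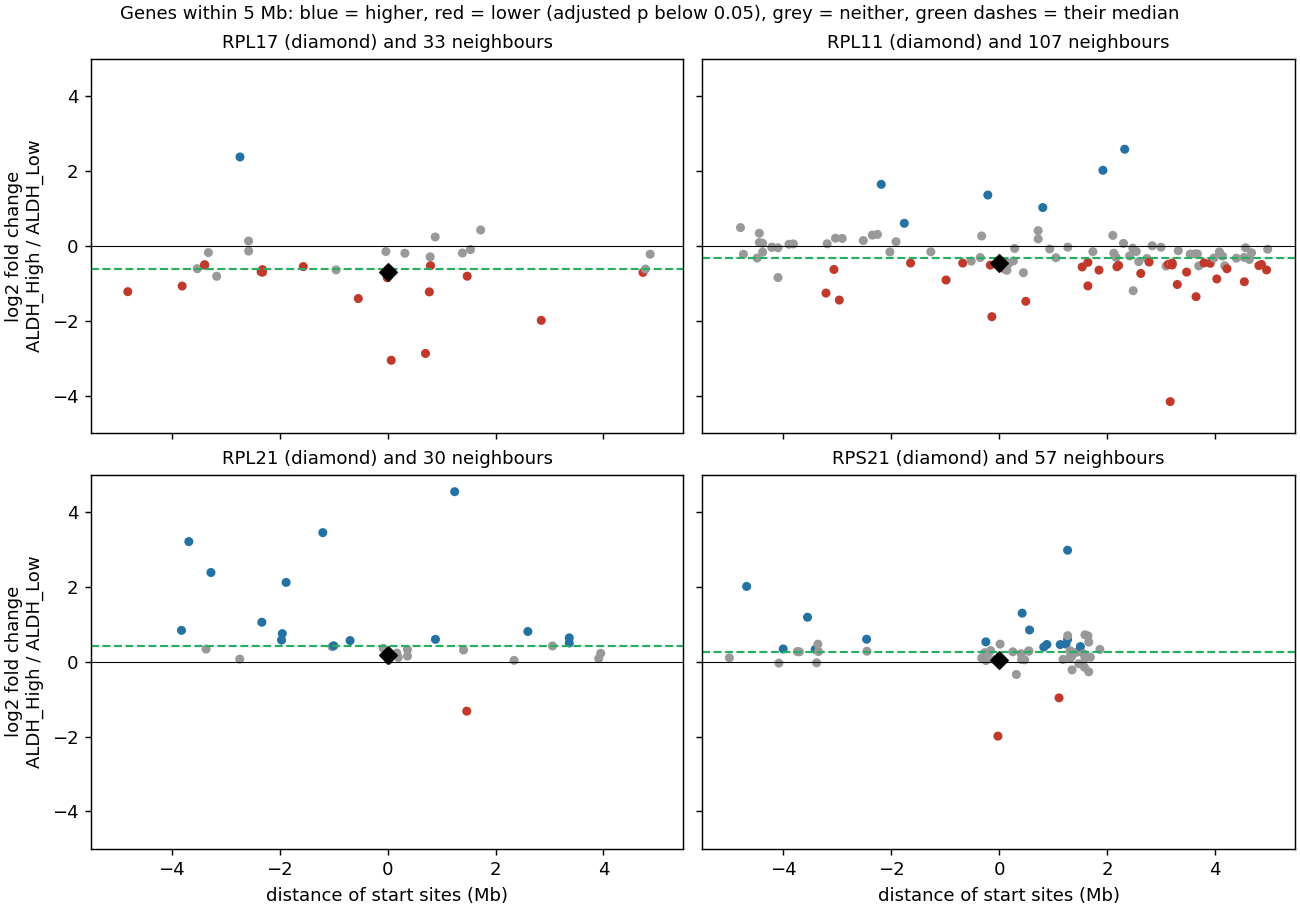
Each panel shows the genes within 5 Mb of 1 core gene (black diamond), with the distance between start sites in Mb on the horizontal axis and the log2 fold change of ALDH_High over ALDH_Low on the vertical axis. The dashed median of the neighbours is at -0.61 for RPL17 and -0.31 for RPL11, and at 0.43 for RPL21 and 0.27 for RPS21.

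RPL21 and RPS21 were the core genes with the highest neighbour medians. RPL21, a large subunit gene at chr13:27251362-27256691, had 30 neighbours with a median of 0.43, of which 15 were higher and 1 was lower, and chromosome 13 as a whole had a median of 0.37 over 213 genes. RPS21, a small subunit gene at chr20:62387103-62388520, had 57 neighbours with a median of 0.27, of which 15 were higher and 2 were lower. Chromosome 20 as a whole had a median of 0.28 over 323 genes.

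RPL21 itself stood at 434.4, 402.0 and 414.8 CPM in ALDH_High and at 343.6, 333.1 and 427.2 CPM in ALDH_Low. Of the ALDH_Low libraries only the third reached the ALDH_High values, and the log2 fold change of 0.18 ± 0.12 (SE) did not pass (edgeR quasi-likelihood test, adjusted p = 0.346), though it did with the length trend removed (0.40, adjusted p = 0.0273). RPS21 stood at 768.3, 595.9 and 552.3 CPM against 638.5, 541.6 and 686.7 CPM, with a log2 fold change of 0.04 ± 0.15 (SE, adjusted p = 0.893), and its groups overlapped. As a contrast chosen after the values were seen, the log2 ratio of RPL17 to RPL21 in TPM was 0.76, 0.75 and 0.60 in ALDH_High and 1.57, 1.59 and 1.55 in ALDH_Low. Pseudogenes named after RPL21 held counts equal to 63.24% to 83.1% of its own by library, so its level and this ratio are uncertain.

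Across the 77 core genes, the fold change of the gene and the median of its neighbours had a Pearson r of 0.738 and a Spearman rho of 0.432. Without RPL17 and RPL11, r was 0.497 and rho 0.386 over 75 genes. These are descriptions across genes, which are not independent replicates: all fold changes come from the same 6 libraries, and core genes near each other share neighbours. The paralogs RPL22L1 and RPL26L1, whose groups did not overlap, had neighbour medians of 0.01 each. Copy number was not measured, and the part of the chromosomal region in these differences was not tested.

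**Figure D4:**
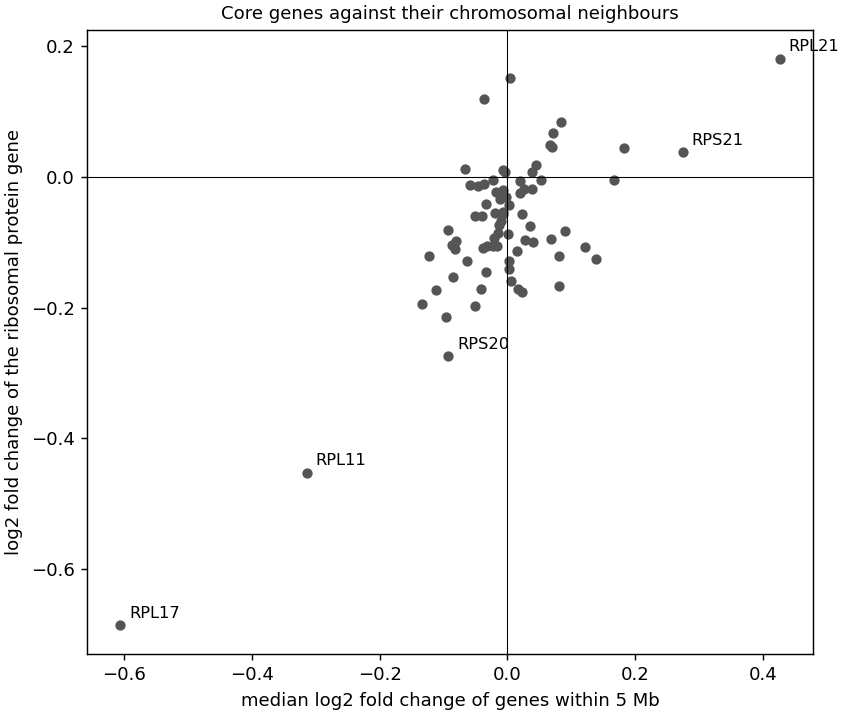
Each point is 1 of the 77 core genes, with the median log2 fold change of its neighbours within 5 Mb on the horizontal axis and its own log2 fold change on the vertical axis. RPL17 (-0.61 and -0.69) and RPL11 (-0.31 and -0.45) lie at the lower left and RPL21 (0.43 and 0.18) at the upper right. RPS21 (0.27 and 0.04) also lies to the right, but its own value is near 0. The other core genes lie closer to 0 on the horizontal axis.

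Relative to the geometric mean of the core genes in the same library, 73 of the 77 core genes differed between the gates by less than 0.2 on the log2 scale. RPL17 (-0.60) and RPL11 (-0.37) lay below that range, and RPL21 (0.27) and RPL9 (0.21) above it. Pseudogenes named after RPL21 and RPL9 held counts equal to 72.8% and 198.8% of those of the genes, beside 0.0314% for RPL17. The values of RPL21 and RPL9 are therefore uncertain. On this relative scale the groups did not overlap for 13 core genes (16.9%), beside 33.1% of all genes tested on the same scale. The lower ones were RPL17, RPL11, RPS20 (-0.20), RPS26 (-0.12), RPL10 (-0.09), RPS27A (-0.09) and RPL35A (-0.08), and the higher ones were RPS3 (0.06), RPL7A (0.06), RPS18 (0.07), RPL27 (0.08), RPS15A (0.12) and RPL21 (0.27). No adjusted p is given for these differences, which were computed after the common movement of the family had been seen.

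No gene of the P stalk, which recruits and activates the translation factors that hydrolyse GTP, passed the test. RPLP0, its base, stood at 3542, 2646 and 2538 CPM in ALDH_High and at 3005, 3029 and 3158 CPM in ALDH_Low. Its log2 fold change was -0.08 ± 0.14 (SE, edgeR quasi-likelihood adjusted p = 0.756). RPLP1 and RPLP2, the acidic proteins that RPLP0 carries, had log2 fold changes of -0.13 and 0.12 with adjusted p of 0.611 and 0.594, and RPL12, at the foot of the stalk, had -0.14 (adjusted p = 0.45). The groups overlapped for all 4 genes. In RPLP0, RPLP1 and RPLP2 the ALDH_High library 1 value was the highest of all 6.

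On the small subunit, 0 of 31 core genes passed. RPS20, which sits in the head of the subunit, came closest, at 923.0, 817.6 and 732.0 CPM in ALDH_High and 933.8, 936.5 and 1120 CPM in ALDH_Low. Its groups just failed to overlap, and the log2 fold change was -0.27 ± 0.13 (SE, edgeR quasi-likelihood test, adjusted p = 0.162). The 6 genes of the mRNA path list (RPS2, RPS3, RPS14, RPS23, RPS26 and RPS28), whose proteins line the channel where the message enters, is decoded or leaves, had a median of -0.09 and none passed. RPS26, which contacts the message at the exit side, stood at 335.3, 256.1 and 258.0 CPM against 306.1, 297.0 and 370.3 CPM, with a log2 fold change of -0.20 ± 0.14 (SE, adjusted p = 0.381).

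Of the 18 genes in a list of those linked to Diamond-Blackfan anaemia, an inherited failure of red cell production, 1 was lower (RPL11), and the median was -0.05. That was 5.56% of the list, beside 20.6% of all genes tested that passed in either direction. RPS19, the gene most often altered in that disease, stood at 1215, 946.8 and 890.4 CPM in ALDH_High and 990.5, 985.7 and 1143 CPM in ALDH_Low, with a log2 fold change of -0.03 ± 0.14 (SE, edgeR quasi-likelihood test, adjusted p = 0.904).

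Several members serve as reference genes in quantitative PCR. None of the 10 on that list passed, and their log2 fold changes lay between -0.17 (RPS27A) and 0.01 (RPL13A). RPL13A stood at 2313, 2013 and 1893 CPM in ALDH_High and at 1954, 2018 and 2201 CPM in ALDH_Low, with a 95% interval for the change from -15.41% to 19.97%. RPS18 stood at 1244, 1056 and 1036 CPM against 1067, 1031 and 1266 CPM, with an interval from -17.97% to 19.96%. In both genes the libraries of a group differed more from each other than the group means did.

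Levels differed among core genes by 10.8-fold in TPM, and by far more than any core gene differed between the gates. The highest was RPL41, the smallest protein of the large subunit, at a mean of 6513 TPM over the 6 libraries, next to RPS27, a zinc-binding protein of the small subunit, at 6504 TPM. The lowest was RPL22, an RNA-binding protein on the surface of the large subunit, at 604.5 TPM. The median core gene stood at 2387 TPM, and 73 of the 77 were above 1000 TPM. The 4 below were RPL22, RPS26 (775.4 TPM), RPL21 (896.5 TPM) and RPL9 (917.0 TPM). Pseudogenes named after RPL9, RPL21 and RPL22 held counts equal to 198.8%, 72.8% and 10.4% of those of the genes themselves. The low ranks of these genes are therefore uncertain.

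Within the large subunit RPL41 was followed by RPL10 (3914 TPM), which is among the last proteins to join, and RPL13 (3835 TPM). Values for RPL41 were 6744, 6568 and 6152 TPM in ALDH_High and 6351, 5999 and 7267 TPM in ALDH_Low, so its groups overlapped. Within the small subunit RPS27 was followed by RPS2 (5595 TPM) and RPS21 (4278 TPM), while RPS26, RPS4X (1244 TPM) and RPS13 (1273 TPM) were lowest. RPS27 ranged from 6102 to 7784 TPM, which overlaps the range of RPL41, so the order of these neighbours was not resolved by the spread between libraries.

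Ribosomal protein genes have many processed pseudogenes, and 1144 pseudogenes named after members were in the table, of which 597 had any count. Their counts summed to 2.6% of those of the members. For 70 of the 76 core genes with a named pseudogene the pseudogenes held under 1% of the gene's own counts. For RPL9 they held 198.8%, mainly in RPL9P9, for RPL21 72.8%, for RPL23A 72.4%, for RPS28 24.7%, for RPS2 11.4% and for RPL22 10.4%. The levels and fold changes of these 6 genes are uncertain for that reason. The pseudogene counts of RPL17 came to 0.0314% of its own.

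RPL9 was the core gene with the largest standard error. It stood at 547.3, 310.6 and 372.2 CPM in ALDH_High and at 406.9, 279.9 and 420.2 CPM in ALDH_Low, and its groups overlapped (log2 fold change 0.15 ± 0.21, edgeR quasi-likelihood adjusted p = 0.682). Pseudogene counts per 100 member counts over the whole family were 2.726, 2.629 and 2.627 in ALDH_High and 2.575, 2.563 and 2.483 in ALDH_Low. Every ALDH_High library was above every ALDH_Low library (exact permutation test, two-sided, p = 0.1, the smallest possible). Most of these pseudogene counts belonged to RPL9, RPL23A, RPS2, RPL21, RPS28 and RPL22, whose values are uncertain, so this is not a trait of the whole family.

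Paralogs were far less abundant than core genes. The 6 that could be tested had mean levels between 29.0 TPM (RPL39L) and 222.7 TPM (RPL22L1), and none passed the threshold. RPL3L, known for its expression in muscle, had at most 7 counts in a library, and RPL10L, known from the testis, at most 4. The paralogs were compared with their core partners as ratios within each library, with Benjamini-Hochberg adjustment over the 6 pairs.

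RPL22L1, which can take the place of RPL22 in the large subunit, was the most abundant paralog relative to its partner. It reached 37.1%, 29.5% and 34.1% of the RPL22 TPM in ALDH_High and 40.1%, 42.2% and 38.7% in ALDH_Low. Every ALDH_High library was below every ALDH_Low library, with means of 33.6 ± 3.84% and 40.3 ± 1.74% (SD, n = 3; exact permutation test, two-sided, p = 0.1, adjusted 0.3). In CPM, RPL22L1 stood at 62.2, 51.4 and 57.1 in ALDH_High and 72.0, 66.9 and 80.3 in ALDH_Low, with a log2 fold change of -0.36 ± 0.12 (SE) that missed the threshold (edgeR quasi-likelihood test, adjusted p = 0.061). RPL22 itself had -0.10 ± 0.12 (SE, adjusted p = 0.622). RPL22L1 did pass with upper-quartile factors (adjusted p = 0.0373) and without ALDH_High library 1 (0.0296), while with the length trend removed its log2 fold change was -0.07 (adjusted p = 0.707).

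RPL26L1 reached 4.66%, 4.92% and 4.55% of the TPM of RPL26, another protein at the exit tunnel, in ALDH_High, and 5.60%, 6.72% and 5.51% in ALDH_Low. These groups did not overlap either (exact permutation test, two-sided, p = 0.1, adjusted 0.3). RPL26L1 stood at 51.9, 51.5 and 45.3 CPM against 56.5, 63.7 and 69.0 CPM, with a log2 fold change of -0.35 ± 0.12 (SE, edgeR quasi-likelihood adjusted p = 0.0691). It passed with upper-quartile factors (adjusted p = 0.0408), while with the length trend removed its log2 fold change was -0.10 (adjusted p = 0.611).

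RPS27L, a paralog of RPS27 known as a p53 target, leaned the other way. It reached 4.40%, 3.51% and 3.46% of RPS27 in ALDH_High and 3.92%, 2.40% and 2.33% in ALDH_Low. ALDH_Low library 1 lay above ALDH_High libraries 2 and 3, so the groups overlapped (exact permutation test, two-sided, p = 0.3, adjusted 0.45). Its log2 fold change in CPM was 0.30 ± 0.19 (SE, edgeR quasi-likelihood adjusted p = 0.324).

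The ratios of the remaining paralogs overlapped between the groups. RPL39L reached 0.729 ± 0.0402% of RPL39 in ALDH_High and 0.818 ± 0.0821% in ALDH_Low, RPL36AL 8.84 ± 0.424% and 8.96 ± 0.854% of RPL36A, and RPL7L1 4.10 ± 0.0914% and 3.91 ± 0.645% of RPL7 (SD, n = 3; exact permutation tests, two-sided, adjusted p of 0.4, 0.9 and 0.84). RPL7L1, which takes part in ribosome assembly, stood at 218.5, 233.6 and 229.9 CPM in ALDH_High and 198.5, 212.6 and 210.3 CPM in ALDH_Low. It was the member that was higher in every ALDH_High library, with a log2 fold change of 0.13 ± 0.10 (SE, edgeR quasi-likelihood adjusted p = 0.396).

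**Figure D5:**
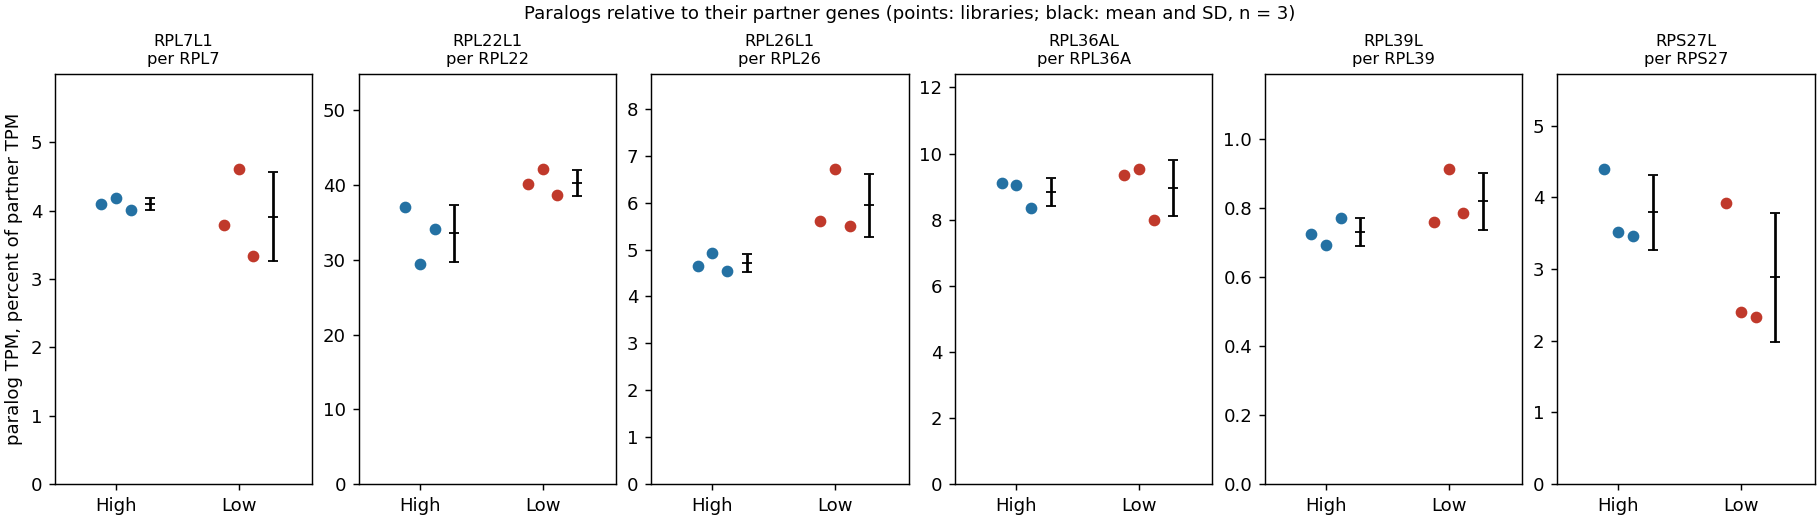
Each panel gives the TPM of a paralog as a percentage of the TPM of its core partner (vertical axis, from 0 and scaled per panel), with a point per library in the ALDH_High (blue) and ALDH_Low (red) groups and the mean and SD of 3 libraries in black. The groups are separate for RPL22L1 (33.6% and 40.3%) and RPL26L1 (4.71% and 5.95%) and overlap in the other 4 panels.

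The 4 remaining rows under the name rule did not pass. RPS19BP1 had a log2 fold change of 0.04 ± 0.13 (SE, edgeR quasi-likelihood adjusted p = 0.878). RPL17-C18orf32 had -0.78 ± 0.48 (adjusted p = 0.307) at no more than 85 counts in a library, RPS10-NUDT3 had 0.02 ± 0.27 (adjusted p = 0.974), and RPL36A-HNRNPH2 had -0.81 ± 0.86 (adjusted p = 0.574). Each readthrough gene overlaps the core gene in its name, so its reads cannot be told apart from those of that gene with any certainty.

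The name rule leaves out ribosomal protein genes with other names. Neither FAU, whose product is a fusion of a small subunit protein with a ubiquitin-like protein, nor the scaffold gene RACK1 passed. Their log2 fold changes were -0.02 and -0.11 (edgeR quasi-likelihood adjusted p = 0.936 and 0.528). FAU stood at 463.1, 355.0 and 335.6 CPM in ALDH_High and 374.2, 393.3 and 403.3 CPM in ALDH_Low, with ALDH_High library 1 highest as in many core genes.

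Other genes of the translation machinery were followed by lists. Among 18 translation factors, many of which also carry TOP motifs, none passed, with a median of -0.03. Among 32 ribosome biogenesis factors none passed either, with a median of -0.01. Among 7 chaperones that escort single ribosomal proteins to the assembling ribosome none passed, with a median of -0.14. The lowest adjusted p in these lists were 0.0664, 0.0902 and 0.059, beside 20.6% of all genes past 0.05.

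Of 16 regulators of ribosomal protein synthesis, 1 was lower and 2 were higher, a share of 18.8% near the 20.6% of all genes tested. MYC, a transcription factor that raises ribosome production, stood at 39.6, 36.1 and 35.7 CPM in ALDH_High and at 78.1, 51.1 and 73.6 CPM in ALDH_Low, with no overlap. Its log2 fold change was -0.86 ± 0.16 (SE, edgeR quasi-likelihood adjusted p = 0.00374), and it passed in all 19 other ways of processing. MAX, the partner with which MYC binds DNA, was higher at 49.5, 47.5 and 42.9 CPM against 35.2, 36.1 and 34.3 CPM (log2 fold change 0.41 ± 0.11 SE, adjusted p = 0.0282).

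EIF4EBP2, a repressor of cap-dependent translation that mTORC1 inactivates, stood at 81.3, 73.3 and 76.9 CPM in ALDH_High and 55.9, 58.2 and 48.2 CPM in ALDH_Low. Its groups did not overlap, and the log2 fold change was 0.51 ± 0.12 (SE, edgeR quasi-likelihood adjusted p = 0.0105). The MAX call was lost in 5 of 19 other ways of processing, among them the fits without ALDH_High library 2 (adjusted p = 0.087) and without each of ALDH_Low libraries 1, 2 and 3 (0.0763, 0.08 and 0.0874), and the EIF4EBP2 call in 2 of 19 (length trend removed, 0.28 with adjusted p = 0.117, and the limma fit over all genes with a TPM above 0, adjusted p = 0.0593). LARP1, which binds TOP transcripts, had a log2 fold change of 0.10 ± 0.14 (SE, adjusted p = 0.681). These values are RNA levels, so neither mTORC1 activity nor the translation of the ribosomal protein transcripts was measured.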

How the data were processed

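RNA from 3 ALDH_High and 3 ALDH_Low samples was measured with a TruSeq stranded mRNA kit, per the labels' protocols. The submitters' processing notes name FastQC 0.11.3, STAR 2.5.1b, HTSeq 0.6.1, DESeq2 and GRCh38. The authors deposited whole-number values that behave as rounded expected counts: 133 to 177 genes per library had a count of 0 beside a TPM above 0. The authors also deposited TPM values, whose gene lengths are not given in the sources used here. Counts carry no molecular identifiers.

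The members and gene lists were chosen with earlier results of these data known. Genes were filtered with filterByExpr, scaled by TMM and tested with edgeR 4.0.16 (R 4.3.3; quasi-likelihood test, all 6 libraries, no replicate term, Benjamini-Hochberg over 17047 genes, threshold 0.05). The procedure was run on simulated counts, but only with larger fold changes than those of the core genes and with noise independent between genes. That run does not cover small changes in a family that moves together by library. Standard errors are on the log2 scale. Ratios used TPM and an exact permutation test. Libraries within a group differed by more than sampling noise (chi-square per degree of freedom at least 12.1). P-values measure the spread between these samples, which may be technical. Deviations of same-numbered libraries of the groups were only weakly correlated (0.194, 0.132 and 0.106), and the labels do not state a pairing. The replicate number was also fitted as a block.

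Named genes were members past the threshold without overlap, tested paralogs with their partners, readthrough genes, the 3 most and least abundant core genes per subunit, the structural and reference gene lists, and up to 3 genes past the threshold in each other list. RPS19, the neighbours and values named for lists without a call were chosen after their values were seen. Positions come from GENCODE 44 (GRCh38), matched by identifier for 99.1% of tested genes. Alternatives used DESeq2 1.42.0 and limma 3.58.1. Details of a few single genes are not reported here.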

Additional observations from a re-analysis of the deposited data

How the results depend on the processing

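With upper-quartile factors 4 members were lower (RPL22L1 and RPL26L1 in addition), or 4.6% of those tested beside 21% of all genes. In the 3 limma fits on log2 TPM, and after scaling to the core members (added after the data were seen), 1 member was lower, RPL17. That was at most 1.15% of the members, beside 16.1%, 16.2% and 5.76% of all genes in the limma fits. After scaling to the core members it was 1.15% beside 15.9%. Removing the length trend left 1 member lower (RPL17) and made 1 higher (RPL21), together 2.3% of members beside 20.3% of all genes. It moved the median of the members from -0.08 to 0.15, and the cause was not tested. Leaving out each library in turn gave between 1 and 8 members lower, with 1 without ALDH_High library 2 or 3 or ALDH_Low library 3 and 8 without ALDH_High library 1, a median of the members from -0.151 to 0.00187, and 2488 to 4221 genes past the threshold. The 8 were 9.2% of members, beside 23.7% of all genes in that fit. In the other leave-out fits 1.15% or 2.3% of members passed, beside 14% to 15.8% of all genes. The limma fit over all genes with a TPM above 0 called 2006 genes, against 3513. With the replicate number as a block the same members passed, RPL17 (adjusted p = 0.0059) and RPL11 (0.0259), with a member median of -0.08. In that fit 3748 genes passed (22%, beside 2.3% of members), and the block changed no other call of a named gene. Of 47 named members that did not pass, 38 changed sign under at least 1 alternative, so no direction is claimed for them. In all, 13 of 154 values of the main comparisons moved, those given above. The 154 include the replicate-block values of the member share, the subunit ratio and the paralog ratios. Those could not move, because the mean of paired differences equals the difference of the group means. Of 1157 values of single genes and gene lists, 92 changed, 49 of them with the length trend removed. For single genes, this meant a changed call or a shift by more than the standard error of the fold change. For gene lists, it meant a number called that changed by more than 1.5-fold, or to or from 0. Each group had 3 libraries, so exact tests could not go below 0.1.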
